A study of Mus musculus with 11 samples.

Results

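The Cyp4 family comprises cytochrome P450 enzymes that hydroxylate fatty acids at or near the terminal carbon. Its members were taken as the array rows whose gene symbol was Cyp4a10, Cyp4a12a, Cyp4a12b, Cyp4a14, Cyp4b1, Cyp4f13, Cyp4f14, Cyp4f15 or Cyp4v3. Of these 9 genes, 8 had a row among the 16475 genes of the array, and Cyp4a12b, matched neither by symbol nor by gene number, was not analysed here. The 8 genes were measured in whole kidneys of 2 lupus-prone F1 hybrids, 7 kidneys from NZB/W mice at 6 weeks of age and 4 from NZW/BXSB mice at 8 weeks. Both groups were untreated, prenephritic and free of proteinuria, and the mice had been perfused with saline before the kidneys were taken. In the study's description the NZB/W mice are females and the NZW/BXSB mice males that carry the Yaa autoimmunity locus of the Y chromosome, so that strain, sex and age differ together between the groups and cannot be told apart.

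Cyp4 enzymes sit in the endoplasmic reticulum, draw electrons from cytochrome P450 reductase, and start the omega-oxidation of fatty acids that is completed by alcohol and aldehyde dehydrogenases and peroxisomal beta-oxidation. In the kidney they also convert arachidonic acid into 20-hydroxyeicosatetraenoic acid (20-HETE), which constricts small arteries and inhibits salt reabsorption in the tubule. The Cyp4a genes are expressed in the proximal tubule. Several of them are induced by the fatty acid receptor PPAR alpha, and in mice the renal levels of Cyp4a12a and Cyp4a14 are known to depend on sex hormones. The Cyp4f genes encode hydroxylases of leukotriene B4 and long-chain fatty acids.

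The Cyp4 genes of the array lie on 3 chromosomes, with Cyp4a10, Cyp4a12a, Cyp4a14 and Cyp4b1 on chromosome 4, Cyp4f13, Cyp4f14 and Cyp4f15 on chromosome 17 and Cyp4v3 on chromosome 8. The RefSeq promoter table (GRCm38.p6, 250 bases before to 50 bases after the transcription start) held 5 of the 9 members, Cyp4b1, Cyp4f13, Cyp4f14, Cyp4f15 and Cyp4v3. The promoters of the chromosome 17 genes, all of which were higher in NZB/W kidneys on the common scale described below and lower as deposited, and of Cyp4b1, which was lower in NZB/W kidneys on both, are shown because the first 3 are neighbours with differences of one sign and Cyp4b1 has the largest difference among the members with a promoter in the table. Capitals mark the CCAAT box (CCAAT, read as ATTGG on the other strand) and the half-site bound by androgen and glucocorticoid receptors (AGAACA, read as TGTTCT on the other strand). All sequences run 5′ to 3′ along the strand of the gene.
Cyp4f13, chr17:32947312-32947611, minus strand: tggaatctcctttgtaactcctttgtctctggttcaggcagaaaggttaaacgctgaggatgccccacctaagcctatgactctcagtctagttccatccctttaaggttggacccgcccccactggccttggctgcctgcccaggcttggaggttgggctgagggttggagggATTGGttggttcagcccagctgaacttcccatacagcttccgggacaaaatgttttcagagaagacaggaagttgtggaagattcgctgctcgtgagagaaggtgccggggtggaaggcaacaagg
Cyp4f14, chr17:32917307-32917606, minus strand, first of 4 starts: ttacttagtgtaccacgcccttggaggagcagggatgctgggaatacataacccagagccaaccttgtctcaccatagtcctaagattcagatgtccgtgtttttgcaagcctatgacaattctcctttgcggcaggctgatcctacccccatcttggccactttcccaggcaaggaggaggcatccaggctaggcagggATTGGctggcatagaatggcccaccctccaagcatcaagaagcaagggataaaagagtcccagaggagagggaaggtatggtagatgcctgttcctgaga
Cyp4f15, chr17:32685409-32685708, plus strand: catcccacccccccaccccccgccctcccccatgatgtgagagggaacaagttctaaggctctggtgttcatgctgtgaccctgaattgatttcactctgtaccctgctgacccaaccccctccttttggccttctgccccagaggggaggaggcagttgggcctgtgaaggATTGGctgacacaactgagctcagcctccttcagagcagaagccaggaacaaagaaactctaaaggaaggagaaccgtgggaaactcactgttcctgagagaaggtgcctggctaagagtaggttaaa
Cyp4b1, chr4:115647672-115647971, minus strand: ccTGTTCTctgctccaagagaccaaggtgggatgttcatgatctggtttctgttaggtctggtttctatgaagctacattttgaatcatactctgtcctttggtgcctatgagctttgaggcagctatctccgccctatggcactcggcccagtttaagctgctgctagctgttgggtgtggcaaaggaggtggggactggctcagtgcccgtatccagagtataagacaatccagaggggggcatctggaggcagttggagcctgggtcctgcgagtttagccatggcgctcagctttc
Each of the 3 Cyp4f promoters held 1 CCAAT box, whose first base lay at position -76 in Cyp4f13, -50 in Cyp4f14 and -78 in Cyp4f15 relative to the start. The Cyp4b1 promoter held none, and its only AGAACA half-site began at position -248. The Cyp4v3 promoter, which is not shown, held neither a CCAAT box nor an AGAACA half-site. Over all 27025 promoters of the table, 37.9% held a CCAAT box and 19.0% the AGAACA half-site on either strand. Further motifs were searched and are not marked. A GC box (GGGCGG, 35.9% of all promoters) matched in Cyp4b1, Cyp4f13, Cyp4f15 and Cyp4v3. A STAT site (TTCNNNGAA, 8.47%) matched in Cyp4b1 and Cyp4f13. Neither motif divided Cyp4b1 from the Cyp4f genes. These matches describe letters only, and binding was not measured.

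The deposited values, log2 signal from robust multi-array averaging, were offset between the strains over the whole array. The median tested gene stood at 7.38 ± 0.01 (SD, n = 7 arrays) in NZB/W against 8.08 ± 0.04 (n = 4) for NZW/BXSB, a median difference of -0.69, and neither its source nor its part in any result was tested. The 11 arrays were therefore also placed on a common scale by quantile normalization over the 14419 genes that were called above baseline in at least 1 strain, which brought the median difference to -0.01. Values below are log2 levels on the common scale unless they are called deposited, and each difference is NZB/W minus NZW/BXSB. In moderated limma fits with Benjamini-Hochberg adjustment over the 14419 genes, 69.4% of them differed between the strains at an adjusted p below 0.05, with 33.8% higher and 35.5% lower in NZB/W. As deposited, 89.5% were called, 5.56% higher and 84% lower, and with each array centred on its median 68.3% were called, 34.6% higher and 33.7% lower. All 8 Cyp4 genes were called on the common scale, 5 higher and 3 lower in NZB/W, and the same 5 and 3 after median centring. As deposited 7 were called, 1 higher and 6 lower. All 8 carried the baseline call in both strains. With a background of 69.4%, this count says little about the family. The sizes of the differences were uneven, at -5.76, 3.0 and -2.28 on the log2 scale for Cyp4a12a, Cyp4a14 and Cyp4b1 and between -0.38 and 0.47 for the other 5 genes.

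**Figure D1:**
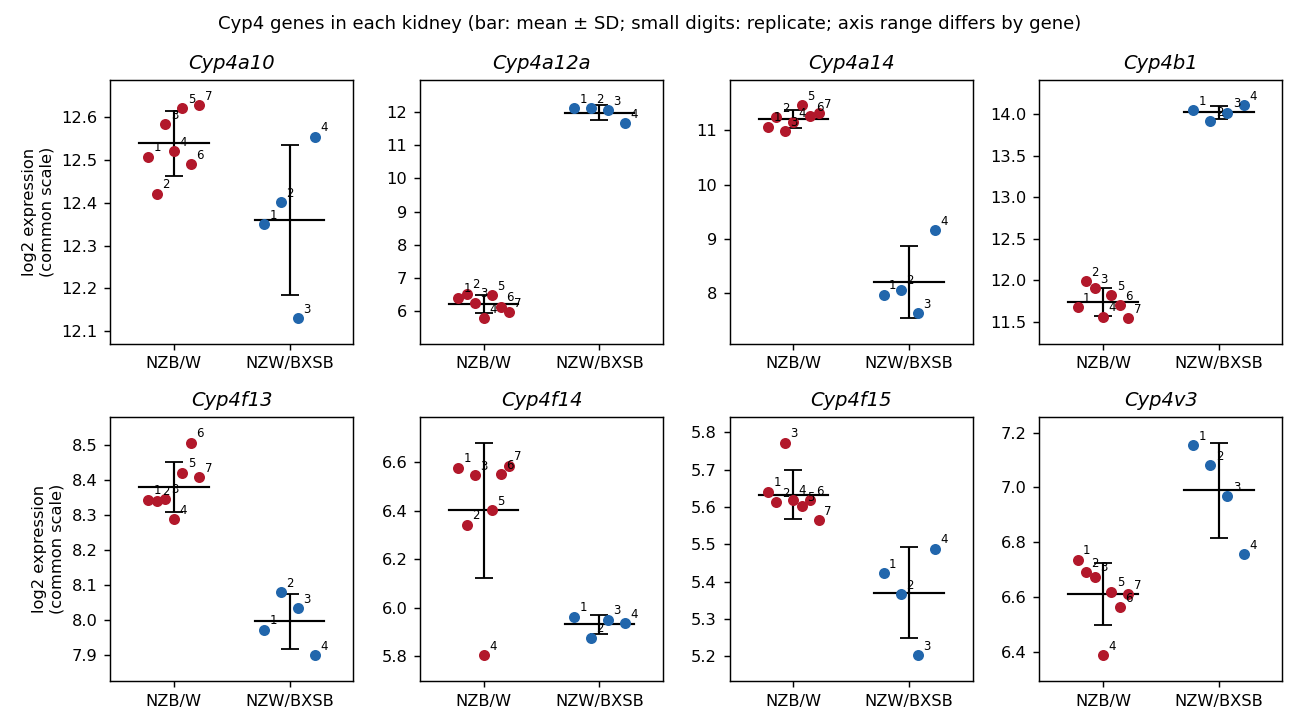
Level of each of the 8 Cyp4 genes in every kidney, as log2 signal on the common scale, with 1 panel per gene, a point for each of 7 NZB/W and 4 NZW/BXSB kidneys, and the group mean with its SD (axis ranges differ by gene). Cyp4a12a, Cyp4a14 and Cyp4b1 are separated by wide gaps, whereas the groups overlap for Cyp4a10 and Cyp4f14.

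Cyp4a12a, the principal 20-HETE synthase of the mouse kidney and an androgen-induced gene, had the largest difference of the family. In NZB/W its level (gene 277753) ran from 5.79 to 6.53 with a median of 6.26. The levels of the NZW/BXSB kidneys were 12.11, 12.11, 12.06 and 11.66. Every NZW/BXSB kidney was far above every NZB/W kidney, and replicate 4 was the lowest of its strain. The means of 6.22 ± 0.27 (SD, n = 7) and 11.98 ± 0.22 (n = 4) differed by -5.76 ± 0.14 (SE, 95% interval -6.06 to -5.46), or 54.2-fold lower in NZB/W (limma adjusted p = 1.71e-12). By absolute difference it ranked 5 of the 14419 tested genes. As deposited the difference was -6.44, and it was -5.75 once the arrays were centred on their medians. Transcripts of its near-identical neighbour Cyp4a12b could contribute to this probe set, and such copies cannot be separated here.

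Cyp4a14, a PPAR alpha-induced lauric acid hydroxylase known for higher levels in female kidneys, differed in the opposite direction. The NZB/W kidneys (gene 13119) ran from 10.98 to 11.46 with a median of 11.24. The NZW/BXSB kidneys stood at 7.98, 8.07, 7.63 and 9.17. The groups did not overlap, but replicate 4 of NZW/BXSB lay more than 1 log2 unit above the rest of its strain. Mean levels of 11.21 ± 0.16 and 8.21 ± 0.66 differed by 3.0 ± 0.21 (SE, 95% interval 2.54 to 3.46), or 7.99-fold higher in NZB/W (limma adjusted p = 3.91e-08). Cyp4a14 was the single Cyp4 member that was also higher in NZB/W as deposited, by 2.29. Its SD among NZW/BXSB kidneys exceeded that of 99.9% of tested genes. Without replicate 4 of NZW/BXSB the difference was 3.32.

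Cyp4a10, a second PPAR alpha-induced lauric acid hydroxylase of the proximal tubule, was nearly level between the strains. NZB/W kidneys (gene 13117) ran from 12.42 to 12.63 around a median of 12.52. In NZW/BXSB the levels were 12.35, 12.40, 12.13 and 12.55. The groups overlapped, because replicate 4 of NZW/BXSB exceeded the NZB/W median. The difference was 0.18 ± 0.07 (SE, 95% interval 0.02 to 0.33), a 1.13-fold higher level in NZB/W with a limma adjusted p of 0.0398, and it turned to -0.49 as deposited (adjusted p = 7.27e-06). The call was lost when any one of NZB/W replicates 3, 4, 5 and 7 or NZW/BXSB replicates 1, 2 and 3 was left out, with adjusted p up to 0.189. Of the array's differences its absolute size ranked 9866 of 14419, so that it lay in the lower part of the list. The signal of Cyp4a10 lay above that of 99.1% of tested genes in NZB/W and 98.8% in NZW/BXSB. Whether its probe set compressed a difference at such levels was not tested. The sequence of Cyp4a10 is close to those of Cyp4a31 and Cyp4a32, and shared signal between these genes cannot be separated here.

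Cyp4b1, which hydroxylates shorter fatty acids and bioactivates furan toxins in lung and kidney, was lower in NZB/W. Its NZB/W levels (gene 13120) ran from 11.54 to 11.99 with a median of 11.70. Those of the NZW/BXSB kidneys were 14.05, 13.91, 14.02 and 14.11. All 4 NZW/BXSB kidneys were above all 7 NZB/W kidneys and varied little. Mean levels of 11.74 ± 0.17 and 14.02 ± 0.08 gave a difference of -2.28 ± 0.08 (SE, 95% interval -2.46 to -2.10), a 4.86-fold lower level in NZB/W (limma adjusted p = 1.19e-10). As deposited it was -2.84. The signal in NZW/BXSB lay above that of 99.9% of tested genes, near the top of the array's range, where a probe set can compress differences, and whether it did so was not tested.

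The 3 Cyp4f genes, hydroxylases of the leukotriene B4 and long-chain fatty acid branch, differed little. For Cyp4f13 (gene 170716) the NZB/W kidneys ran from 8.29 to 8.51 with a median of 8.35. The NZW/BXSB kidneys stood at 7.97, 8.08, 8.03 and 7.90. These groups did not overlap, and the difference of 0.38 ± 0.05 (SE, 95% interval 0.27 to 0.50), a 1.30-fold higher level in NZB/W (limma adjusted p = 2.78e-05), turned to -0.32 as deposited. Cyp4f14, an omega-hydroxylase of leukotriene B4 (gene 64385), ran from 5.80 to 6.58 in NZB/W with a median of 6.55. In NZW/BXSB it stood at 5.96, 5.87, 5.95 and 5.94. The groups overlapped through a single kidney, NZB/W replicate 4, which was below all 4 NZW/BXSB kidneys. Its difference was 0.47 ± 0.12 (SE, 95% interval 0.20 to 0.74) with a limma adjusted p of 0.00417, and -0.18 as deposited (adjusted p = 0.224). Cyp4f15, a close relative in the same cluster (gene 106648), ran from 5.57 to 5.77 in NZB/W with a median of 5.62. In NZW/BXSB it stood at 5.42, 5.37, 5.20 and 5.49. The groups were adjacent without overlap, and the difference of 0.26 ± 0.06 (SE, limma adjusted p = 0.00143) turned to -0.30 as deposited and was no longer called, at 0.090 (adjusted p = 0.177), when quantiles were computed over the 13138 genes above baseline in both strains. Its levels are close to the bottom of the signal range, since 95% of the 1053 tested genes not called above baseline in NZB/W lay below 5.50.

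Cyp4v3, the mouse counterpart of human CYP4V2, whose loss causes Bietti crystalline dystrophy of the retina, was lower in NZB/W. Its NZB/W levels (gene 102294) ran from 6.39 to 6.74 with a median of 6.62. Those of the NZW/BXSB kidneys were 7.15, 7.08, 6.97 and 6.76. The lowest NZW/BXSB kidney, replicate 4, was next to the highest NZB/W kidney, and the groups did not overlap. The difference was -0.38 ± 0.08 (SE, 95% interval -0.55 to -0.21, limma adjusted p = 8.71e-04), a 1.30-fold lower level in NZB/W, and -1.07 as deposited. In all, 6 of the 8 members did not overlap between the strains, against 54.4% of all tested genes on the common scale, and 6 of 8 against 80.6% as deposited, where Cyp4f14 and Cyp4f15 overlapped. The median absolute difference was 0.43 over the 8 members and 0.31 over all tested genes.

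**Figure D2:**
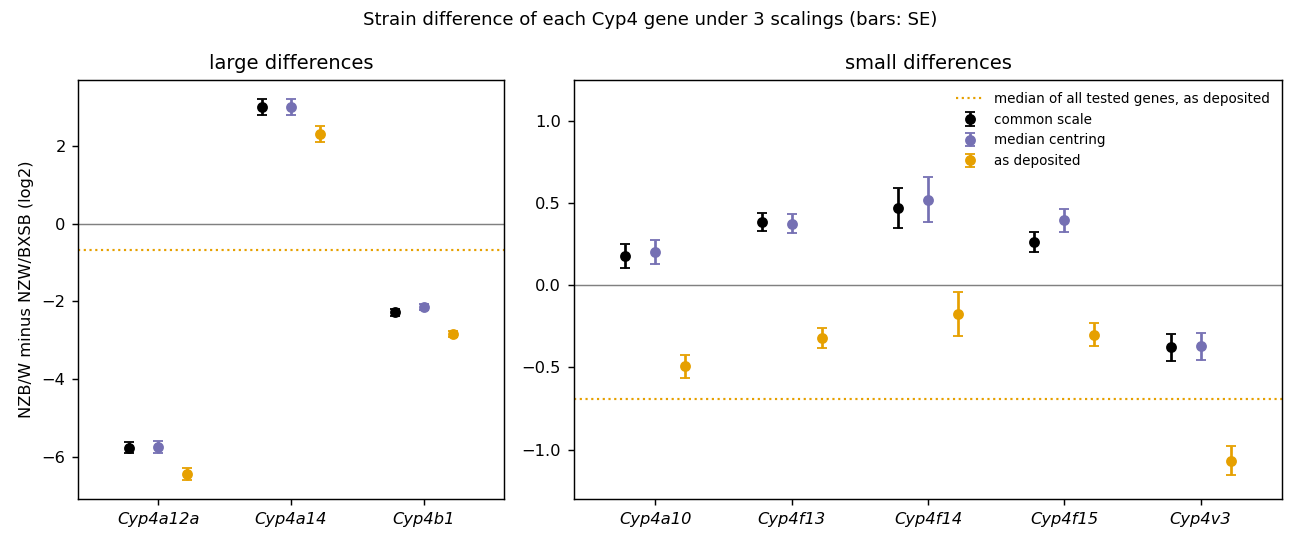
Difference of each Cyp4 gene between the strains (NZB/W minus NZW/BXSB, log2), drawn on the common scale, after centring each array on its median, and as deposited, with bars for the SE and a dotted line at the deposited median of all tested genes (-0.69). Cyp4a12a, Cyp4a14, Cyp4b1 and Cyp4v3 keep their sign on all 3 scales, while Cyp4a10, Cyp4f13, Cyp4f14 and Cyp4f15 change from higher to lower on the deposited scale.

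Ratios of the members within an array do not depend on a shift that is equal for all its genes, and 3 were computed on deposited values after the levels had been seen. The log2 ratio of Cyp4a14 to Cyp4a12a ran from 4.45 to 5.45 in NZB/W, but from -4.46 to -2.45 across the NZW/BXSB kidneys. The means of 4.96 ± 0.35 and -3.78 ± 0.90 differed by 8.74, and only this change between the strains can be read, since the zero of a ratio depends on the probes. The ratio of Cyp4a14 to its neighbour Cyp4a10 was -1.35 ± 0.17 in NZB/W against -4.13 ± 0.54 for NZW/BXSB, a difference of 2.79. For Cyp4b1 to Cyp4a10 the ratios were -0.81 ± 0.20 and 1.54 ± 0.16, a difference of -2.35. In each case no kidney of one strain reached the other. The genes were picked for their levels, so these differences are a description with no test.

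Within a strain the spread of the members was uneven as well. The median SD over tested genes was 0.12 among NZB/W and 0.08 among NZW/BXSB kidneys. The SD of Cyp4a12a exceeded that of 95.1% of tested genes among NZB/W kidneys and 95.7% among those of NZW/BXSB, and that of Cyp4f14 exceeded 95.5% in NZB/W. Cyp4a10, by contrast, exceeded 16.2% of genes among NZB/W but 90.7% among NZW/BXSB kidneys. Replicate 4 of NZW/BXSB stood at an end of its strain for 7 of the 8 members. It was highest for Cyp4a14, Cyp4a10, Cyp4b1 and Cyp4f15 and lowest for Cyp4a12a, Cyp4f13 and Cyp4v3. As deposited, replicate 1 was highest for Cyp4b1 (14.3588 against 14.3586), and replicate 4 was highest for Cyp4f14. Among 4 kidneys a place at an end is common by chance. The share of all tested genes for which replicate 4 of NZW/BXSB stood at an end was not computed. Across genes, the SD of its differences from the other NZW/BXSB kidneys was 0.17 to 0.21, against 0.14 to 0.15 between those kidneys. This kidney thus also lay somewhat farther from the others over all tested genes. Whether its deviations in the Cyp4 genes went beyond that was not tested. The sample label of this kidney carries a different code from the other kidneys of its strain, whose meaning is not stated. The mean level of 8 female-biased kidney genes was 7.68 in this kidney and 7.83 to 8.02 in the rest of the strain, and that of 14 male-biased genes was 11.70 against 11.80 to 11.82. Replicate 4 of NZB/W had the lowest Cyp4a12a, Cyp4f13, Cyp4f14 and Cyp4v3 of its strain.

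**Figure D3:**
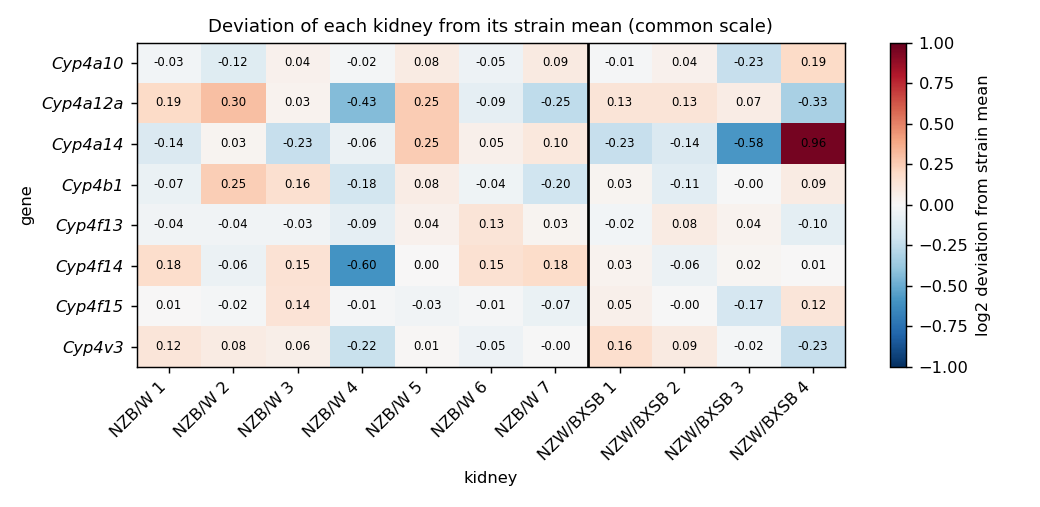
Deviation of every kidney from its strain mean for each Cyp4 gene (log2, common scale), as a colour map with the value printed in each cell, kidneys in columns and genes in rows. NZW/BXSB replicate 4 carries the widest deviation, in Cyp4a14, and NZB/W replicate 4 the lowest value of Cyp4f14.

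Among the 7 NZB/W kidneys the levels of the members were correlated pair by pair, with 28 pairs and exact permutation tests over 5040 orders. No pair passed Benjamini-Hochberg adjustment (smallest adjusted p = 0.378 for r and 0.189 for rho), and 3 pairs had an unadjusted p below 0.05 by Pearson's r. Cyp4a12a and Cyp4v3 gave r = 0.81 (exact p = 0.0177) and rho = 0.79 (exact p = 0.0480), and r was 0.58 without the 2 kidneys farthest from the median of Cyp4a12a. Cyp4a14 and Cyp4f15 gave r = -0.77 (exact p = 0.0379) and rho = -0.93 (exact p = 0.00675), with r = -0.83 without the 2 farthest kidneys, but r was 0.46 over the deviations of all 11 kidneys from their strain means. For Cyp4a12a and Cyp4b1 r was 0.79 (exact p = 0.0405), and 0.45 without the 2 farthest. With 4 kidneys, NZW/BXSB was too small for the same test.

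The genes whose deviations from the strain means were most like those of a member, over the 11 kidneys, are given as a description with no test. For Cyp4a12a they were Snx13 (r = 0.92), Fga (0.92), Sema7a (0.90) and Fgg (0.89), of which Fga and Fgg encode chains of fibrinogen. Cyp4a14 was closest to Hs3st1 (r = 0.90), a heparan sulfate sulfotransferase, and Tmem190 (0.89), and Cyp4a10 to Pyy (r = 0.94), a gut peptide hormone, and Cml2 (0.91). For Cyp4b1 the nearest were Hdac3 (r = 0.87), a histone deacetylase, and Them4 (0.87). In the Cyp4f cluster, 0610010K14Rik (r = 0.93) was nearest to Cyp4f13, 9330101J02Rik (r = 0.96) to Cyp4f14 and B230311B06Rik (r = 0.88) to Cyp4f15. The gene nearest to Cyp4v3 was 1810019J16Rik (r = 0.90). No member was among the 5 nearest genes of another, and these genes were picked as the highest of all tested genes.

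Of 12 further Cyp4 genes listed, 5 had a row and 4 could be tested. Cyp4a31, a near-identical relative of Cyp4a10, was higher in NZB/W at 11.52 ± 0.11 against 10.80 ± 0.12 (difference 0.73 ± 0.07, limma adjusted p = 6.75e-07), but by 0.02 as deposited (adjusted p = 0.840). Cyp4f18, the leukotriene B4 hydroxylase of neutrophils, and Cyp4f39 were not called above baseline in NZB/W, so that their signals there, 4.92 ± 0.09 and 5.37, bound the level from above and no test is given. In NZW/BXSB, where both were called above baseline, Cyp4f18 stood at 5.61 ± 0.05 and Cyp4f39 at 5.08. Cyp4f16 stood at 7.05 ± 0.10 and 6.91 ± 0.14 (adjusted p = 0.0973).

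Genes next to the Cyp4 clusters in RefSeq order showed mixed differences. On the side of Cyp4a12a on chromosome 4, Foxe3 differed by 0.45 (-0.23 as deposited), Pdzk1ip1 by 0.27 (-0.39 as deposited) and Cmpk1 by -0.24, all called, whereas Tal1 at 0.05 and Foxd2 at 0.00 were not. Beyond Cyp4b1, Tex38 (-0.60) and Mob3c (-0.29) were called lower in NZB/W and Efcab14 (-0.10) was not called. None of these flanking genes came near the differences of Cyp4a12a, Cyp4a14 or Cyp4b1. Within the chromosome 17 cluster the zinc finger genes Zfp871 (1.05) and Zfp799 (0.58, but -0.11 as deposited), which lie between Cyp4f15 and Cyp4f14, were called higher with a larger difference than any Cyp4f member. Around Cyp4v3 on chromosome 8, the plasma kallikrein gene Klkb1 (-0.82), the coagulation factor gene F11 (0.20, but -0.39 as deposited) and the innate immune receptor gene Tlr3 (-0.46) were called. The melatonin receptor gene Mtnr1a (0.87) and Sorbs2 (0.66, but -0.04 as deposited) were also called, while Frg1 (0.13), Fat1 (0.04) and Pdlim3 (0.09) were not.

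**Figure D4:**
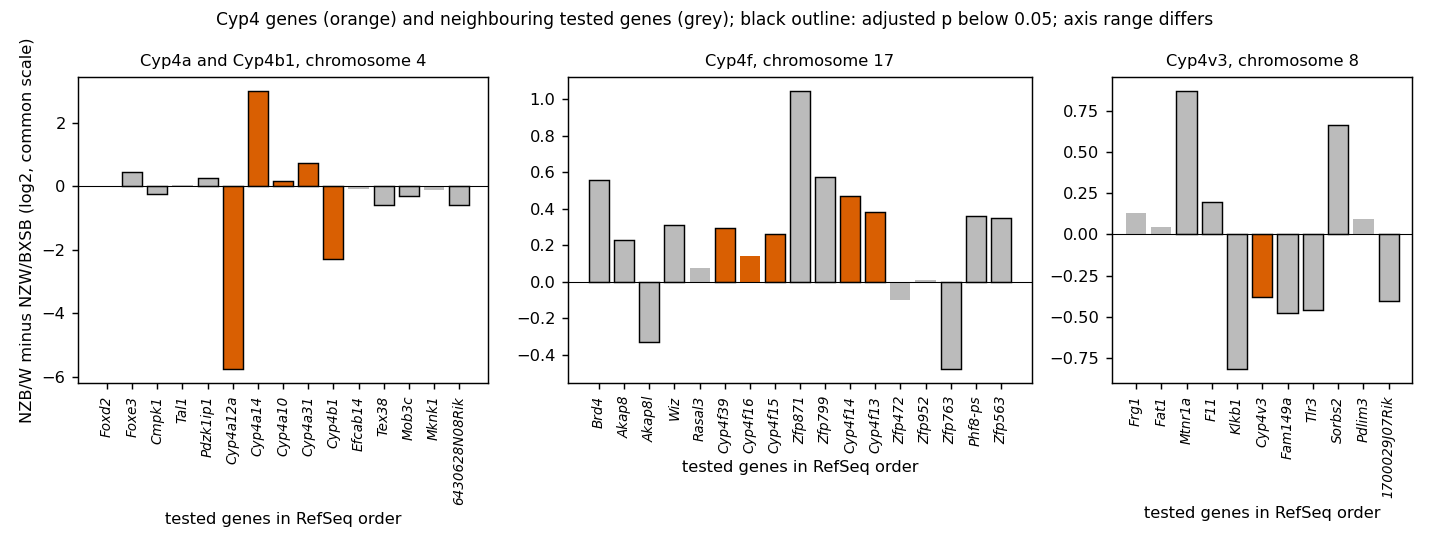
Difference between the strains (NZB/W minus NZW/BXSB, log2, common scale) of the Cyp4 genes and up to 5 tested genes on each side, in RefSeq order along chromosomes 4, 17 and 8, as bars outlined in black where called, with axis ranges that differ by panel. The large differences on chromosome 4 belong to Cyp4a12a, Cyp4a14 and Cyp4b1 and not to the genes beside the cluster.

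The other genes of the pathway were read from lists of targets, partners and downstream enzymes. Of 36 PPAR alpha target genes other than Cyp4a, 4 were higher and 20 lower in NZB/W (median -0.25), against 33.8% and 35.5% of all tested genes. As deposited 1 was higher and 33 were lower, where 5.56% and 84% of all tested genes were. Under the study's limits the counts were 2 and 7, against 14.6% and 13.1% of all tested genes. With 1 kidney left out 18 to 20 were lower. Crot, which exports medium-chain acyl groups from peroxisomes, was lower by -1.0 ± 0.08 (limma adjusted p = 6.79e-08). Acsl1, a long-chain acyl-CoA synthetase, was higher by 0.89 ± 0.07 (adjusted p = 6.39e-08), and by 0.19 as deposited (adjusted p = 0.0542). Ppara itself averaged 9.89 ± 0.38 in NZB/W kidneys against 9.52 ± 0.08 in those of NZW/BXSB, a difference of 0.37 that missed the threshold (adjusted p = 0.0613). Of 11 PPAR receptors and partners, 4 were higher and 2 lower (median 0.03; as deposited 0 and 8), among them the coactivators Ppargc1a (1.07 ± 0.15, adjusted p = 3.25e-05) and Ppargc1b (0.85 ± 0.11, adjusted p = 8.62e-06), neither of which was called as deposited (0.36 and 0.13).

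Of 17 enzymes downstream of the hydroxylation step, 2 were higher and 9 lower in NZB/W (median -0.30), against 35.5% of all tested genes called lower. The counts were 3 and 8 after median centring (median -0.13) and 0 and 15 as deposited. Amacr, the racemase of branched-chain acyl-CoAs, was lower by -1.67 ± 0.09 (limma adjusted p = 2.60e-09), and Hsd17b4, the peroxisomal bifunctional enzyme, by -0.43. Acsl1 and Hsd17b4 belong to this list and to that of the PPAR alpha targets. Of 14 genes for P450 electron donors and haem synthesis, 2 were higher and 9 lower (median -0.17; as deposited 0 and 14). Over all tested genes the shares were 33.8% higher and 35.5% lower, and 5.56% and 84% as deposited. Fech, which inserts iron into haem, was lower by -0.78 ± 0.05 (adjusted p = 1.12e-08) and the haem-degrading Hmox1 by -1.23 ± 0.12 (adjusted p = 6.36e-07).

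The arachidonic acid and eicosanoid genes, which use the same substrate, were divided, with 9 higher and 12 lower of 28 (median -0.04; as deposited 1 and 21). All tested genes were called higher in 33.8% and lower in 35.5% of cases, and in 5.56% and 84% as deposited. Cyp2j13, another P450 of the family of arachidonic acid epoxygenases, stood at 5.44 ± 0.08 in NZB/W against 11.76 ± 0.07 for NZW/BXSB, a difference of -6.32 of the order of that of Cyp4a12a. Ephx2, the soluble epoxide hydrolase, was lower by -1.50 ± 0.09 (limma adjusted p = 9.70e-09). The leukotriene B4 receptor genes differed in opposite directions, Ltb4r1 by -1.23 ± 0.05 (adjusted p = 4.25e-10) and Ltb4r2 by 0.66 ± 0.06 (adjusted p = 2.72e-07), although Ltb4r2 was not called as deposited (0.065, adjusted p = 0.394). Of 25 hormone receptors and transcription factors, 7 were higher and 12 lower (median -0.13; as deposited 2 and 20), beside the same shares over all tested genes. Prlr, the prolactin receptor, was higher by 4.03 ± 0.12 (adjusted p = 2.27e-11), and the transcriptional repressor Bcl6 was lower by -1.58 ± 0.10 (adjusted p = 1.26e-08).

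Genes known for a sex difference in the mouse kidney showed wide shifts. Their counts stand against 33.8% higher and 35.5% lower over all tested genes, and 5.56% and 84% as deposited. The lists were chosen with earlier results of these data known. Of 14 male-biased genes, 13 were lower and 1 higher in NZB/W (median -3.99; as deposited 14 lower), and the list mean ran from 8.18 to 8.25 in NZB/W against 11.70 to 11.82 for NZW/BXSB. Cyp7b1, a steroid hydroxylase, was lower by -6.42, and Slco1a1, an organic anion transporter, by -4.14. Of 8 female-biased genes, 7 were higher and 0 lower (median 3.03; as deposited 7 and 1), with list means of 10.73 to 11.21 and 7.68 to 8.02. Slc7a12, an amino acid transporter, was higher by 4.88. Cyp2j13 is also one of the male-biased genes and Prlr one of the female-biased genes. The X-inactivation transcript Xist was higher and the Y-linked Ddx3y, Eif2s3y and Uty lower in NZB/W. Cyp4a12a and Cyp4b1 (-2.28) were lower in NZB/W like the male-biased list, and Cyp4a14 was higher like the female-biased list. The part of sex in the differences of these members cannot be told apart from those of strain and age.

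**Figure D5:**
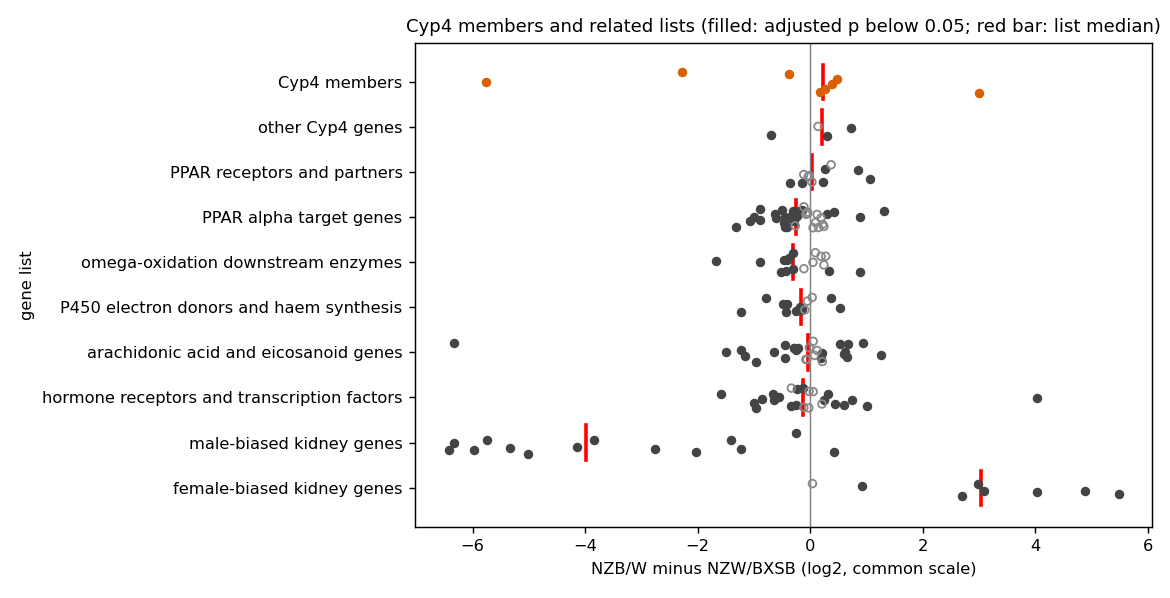
Differences between the strains (NZB/W minus NZW/BXSB, log2, common scale) of the Cyp4 members and of every tested gene in each related list, 1 row per list, with filled points for genes called at an adjusted p below 0.05 and a line at the list median. The male-biased list has its median at -3.99 and the female-biased list at 3.03, while the medians of the other lists drawn lie between -0.30 and 0.22.

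Markers of the parts of the kidney were set beside these values, since in whole kidney fewer cells of a type and less RNA per cell cannot be told apart. The counts stand against 33.8% higher and 35.5% lower over all tested genes, and 5.56% and 84% as deposited. Of 7 markers of the convoluted proximal tubule, 6 were higher in NZB/W (list mean 12.39 to 12.67 against 12.03 to 12.12), but as deposited 1 was higher and 4 were lower. Of 5 markers of the straight proximal tubule, 1 was higher and 2 lower (9.83 to 10.23 against 11.19 to 11.26), and as deposited 0 and 5. The lower pair was Slc7a13 (-5.33), which is also on the male-biased list, and Atp11a (-1.42). All 6 markers of the thick ascending limb and distal tubule were higher (11.63 to 11.96 against 11.41 to 11.45), and 4 were lower as deposited. Hepatocyte markers, relevant because the liver expresses the same Cyp4 genes, had 1 higher and 3 lower of 8 (7.26 to 7.45 against 7.31 to 8.09), and 8 lower as deposited. Adipocyte markers had 2 higher and 2 lower of 6 (8.01 to 9.04 against 8.56 to 8.67), and 1 and 4 as deposited. Leukocyte markers had 2 higher and 2 lower of 6 (7.04 to 7.52 against 7.16 to 7.45), and 0 and 5 as deposited. Adrenal cortex markers varied most, with 2 of 7 higher (0 as deposited), list means of 7.0 to 8.11 in NZW/BXSB, and of 8.11 to 9.60 in NZB/W apart from replicate 2, which stood at 5.45. The part of these cell types in the Cyp4 differences was not tested.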

How the data were processed

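Kidney RNA was extracted with Trizol, labelled with biotin and hybridised to Affymetrix arrays. The deposited log2 expression values were made by the authors with RMA, with probes grouped by Entrez gene. The study's methods describe normalization and batch correction of its arrays together. The deposited arrays nevertheless had median levels of 7.38 in NZB/W and 8.08 in NZW/BXSB. Whether the deposited values are the jointly corrected ones is not stated and was not tested. The sources used here name neither the samples of each batch nor the tool versions. Deposited Yes or No calls (unit other) state, per strain, whether a gene was above baseline, and the samples behind a call are likewise not given.

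Members and lists were chosen with earlier results of these data known. Of 16539 rows, 64 control rows were left out, 16229 of 16475 genes matched the RefSeq gene table, and the 14419 genes above baseline in at least 1 strain were quantile normalized and fitted with limma 3.58.1 (R 4.3.3, lmFit and eBayes, strain as the only term), with p-values adjusted by Benjamini-Hochberg and a threshold of 0.05. The fit was tested on simulated data with 200 changed genes. Correlations used exact permutation tests (scipy 1.17.1), and within-array ratios are given with no test. The rule for named genes took all members, other Cyp4 genes with a row, up to 4 called genes of smallest p in each list, the 5 genes of highest r for each member, up to 5 neighbours on each side of a cluster and 4 sex-linked genes. Ppara was named outside it. Alternatives were the deposited scale, median centring, no filter on dim genes, an intensity trend with robust fitting, quantiles over the genes above baseline in both strains, a replicate block, the study's limits (adjusted p at most 0.001 and a fold of at least 1.4 or at most 0.7), and leaving out kidneys. Log2 signals from arrays carry no read depth, so the number of arrays, 7 and 4, limits precision. Replicates are separate samples per the labels.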

Additional observations from a re-analysis of the deposited data

Results flagged for a closer look

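Of 16 sets of values (8 genes in each of 2 strains), 3 held 1 kidney separated from the others by more than Dixon's 95% critical value, where chance flags about 5% of sets. Cyp4a12a in NZW/BXSB replicate 4 was 11.66, below the rest of its strain. Cyp4f14 in NZB/W replicate 4 was 5.80, below the rest of its strain. Cyp4f15 in NZB/W replicate 3 was 5.77, above the rest of its strain, but was not separated in this way on the deposited scale, where 2 of the 16 sets were. Without these kidneys the 3 genes kept the direction and call of their strain differences.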

How the results depend on the processing

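On the deposited scale the differences of Cyp4a10 (-0.49), Cyp4f13 (-0.32), Cyp4f14 (-0.18) and Cyp4f15 (-0.30) had the opposite sign, and the members called higher and lower in NZB/W numbered 1 and 6 in place of 5 and 3. Relative to the deposited median difference of all tested genes (-0.69), Cyp4a10, Cyp4f13, Cyp4f14 and Cyp4f15 differed by 0.20, 0.37, 0.51 and 0.39. These values have the sign of the common scale. Under the study's limits 3 members were called, 1 of them higher, and 3996 (27.7%) of all tested genes. Cyp4a10 (0.18), Cyp4f13 (0.38), Cyp4f14 (0.47), Cyp4f15 (0.26) and Cyp4v3 (-0.38) missed those limits. Cyp4f15 lost its call with genes above baseline in both strains (0.090). Cyp4a10 lost its call without NZB/W replicates 6 and 7 (0.17, limma adjusted p = 0.0830). With 1 kidney left out its difference ran from 0.10 to 0.25 (adjusted p = 0.00766 to 0.189), and 7 to 8 members were called. Cyp4a12a, Cyp4a14 and Cyp4b1 kept their direction and call under every alternative tried, with leave-one-out ranges of -5.88 to -5.68, 2.80 to 3.32 and -2.34 to -2.24. The 3 within-array ratios kept their direction, at 8.51 to 9.18, 2.66 to 3.06 and -2.40 to -2.28. Replicate numbers were not used to pair kidneys in the main fit. Deviations of same-numbered kidneys correlated at -0.08, 0.27, -0.00 and -0.13, and 1 of 4 matched best with its own number. With only 4 numbers in both strains, these values cannot exclude a pairing. With the replicate block, 7 members and 9252 of all tested genes (10001 without it) were called, and Cyp4a10 lost its call (0.15, adjusted p = 0.186). The causes were not tested. Cyp4f15 lies near the bottom and Cyp4a10 and Cyp4b1 near the top of the signal range, and the effect on their differences was not tested.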

Other observations

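The pseudogene Cyp4f41-ps, called above baseline in neither strain, ran from 4.17 to 4.45 in NZB/W and from 5.13 to 5.36 in NZW/BXSB on the deposited log2 scale. On that scale the median difference over all tested genes was -0.69, and no strain difference is read for a gene below baseline.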
